A study of Arabidopsis thaliana with 34 samples.

Results

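The overlap of NRPE1 with H3K9me2 in the *h1* mutant was measured from ChIP-seq peak lists of 4 libraries, 2 with an antibody against NRPE1 and 2 with an antibody against H3K9me2. They were chosen by their labels from the 34 samples of the study, of which 18 have a peak list. Each library has its own list, and only peaks on the 5 nuclear chromosomes were used. The study asked how linker histone H1 affects where the RNA-directed DNA methylation machinery sits in Arabidopsis. The *h1* plants are *h1.1-1/h1.2-1* double mutants and the wild type (WT) is Col-0, the ecotype of all plants of the study. NRPE1 was precipitated with an antibody against the native protein, without a transgene. According to the methods, seedlings 10 to 12 days old were pooled for every ChIP sample, but the labels name floral tissue. H1 ChIP-seq of *h1* plants was not analysed here, so nothing in these lists checks the genotype. The study describes its NRPE1 libraries of WT and *h1* as biological replicates. For the H3K9me2 libraries no source used here says so, and differences between those may be technical.

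NRPE1 is the largest subunit of RNA polymerase V, a plant polymerase whose transcripts serve as scaffolds for small RNAs and for the DNA methyltransferase DRM2. H3K9me2 is the histone mark of silent plant heterochromatin, where it is maintained in a loop with non-CG DNA methylation, and wide tracts of it lie around the centromeres. H1 binds the linker DNA between nucleosomes and is abundant in this heterochromatin, while RNA-directed DNA methylation in WT is best known from short transposable elements and from the edges of long ones.

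A domain was a run of merged H3K9me2 peaks from the 2 *h1* lists that held a peak of both. Of 7222 merged regions, 3750 met this rule and covered 13.8 Mb, or 11.6% of the nuclear genome. The other 3472 regions had peaks of 1 library only, with a median width of 235 bp and 0.966 Mb in all. Domains ranged from 147 to 167125 bp in width with a median of 1018.5 bp. The 537 domains of 5 kb or more held 71.1% of all domain bases. The fill of a domain is the percent of its bases under NRPE1 peaks of 1 library, and depth is the distance of a base to the nearer edge of its domain.

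Reference sequence from 7 places shows what these domains hold, each time 150 bases of the plus strand from RefSeq's TAIR10.1 assembly, with CG sites in capitals. The first domain was wholly filled in both *h1* lists, as were 3 others of 5 kb or more. The AT5G28523 and AT4G08262 domains had the first and second largest rise over WT among domains of 5 kb or more. The last is a wide domain with no NRPE1 peak in any list. The unfilled stretch is the centre of the longest run of bases in the chromosome 3 domain that have a unique 50-mer and lie under neither *h1* list, and it was picked after its values had been seen, for comparison with the filled centre of the same domain. The left edge has 75 bases outside the domain.
AT3G31980 domain, centre, chr3:12975124-12975273: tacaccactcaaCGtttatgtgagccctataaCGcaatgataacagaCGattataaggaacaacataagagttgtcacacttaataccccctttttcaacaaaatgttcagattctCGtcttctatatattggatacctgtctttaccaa
AT5G28523 domain, left edge, chr5:10497263-10497412: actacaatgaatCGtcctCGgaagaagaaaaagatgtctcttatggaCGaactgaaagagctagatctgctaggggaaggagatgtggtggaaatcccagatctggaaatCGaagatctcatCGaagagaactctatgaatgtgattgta
AT5G28523 domain, centre, chr5:10499783-10499932: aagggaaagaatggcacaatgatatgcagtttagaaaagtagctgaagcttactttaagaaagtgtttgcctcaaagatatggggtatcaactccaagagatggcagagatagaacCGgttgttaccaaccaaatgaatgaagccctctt
AT4G08262 domain, centre, chr4:5207447-5207596: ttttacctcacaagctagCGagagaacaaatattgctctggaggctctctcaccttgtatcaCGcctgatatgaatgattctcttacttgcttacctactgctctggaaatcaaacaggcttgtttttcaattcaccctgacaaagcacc
Widest domain of chromosome 3, centre, chr3:13924852-13925001: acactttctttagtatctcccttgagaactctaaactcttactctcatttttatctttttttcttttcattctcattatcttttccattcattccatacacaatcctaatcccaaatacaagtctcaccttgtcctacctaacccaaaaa
Widest domain of chromosome 3, unfilled unique stretch, chr3:13875354-13875503: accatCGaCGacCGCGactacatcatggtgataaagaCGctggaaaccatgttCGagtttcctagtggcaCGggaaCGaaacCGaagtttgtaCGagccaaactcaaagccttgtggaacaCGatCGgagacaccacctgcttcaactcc
Widest domain of chromosome 2, centre, chr2:3312548-3312697: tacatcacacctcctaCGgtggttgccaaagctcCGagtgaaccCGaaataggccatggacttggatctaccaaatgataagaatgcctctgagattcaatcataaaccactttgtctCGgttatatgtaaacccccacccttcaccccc

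The 5 stretches from filled places lay wholly under NRPE1 peaks of both *h1* libraries and under none of either WT library. They hold 4, 5, 1, 2 and 0 CG sites in the order printed. The unfilled stretch holds 12 CG sites and lay under none of the 4 NRPE1 lists. The whole uncovered run of 1726 bp has 37.7 CG sites per kb, so the printed centre is richer in CG sites than its run. The last stretch holds 4 CG sites, has 1 nuclear copy and also 1 exact copy in the mitochondrial genome.

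NRPE1 peaks filled most of the H3K9me2 domains in *h1*. They covered 69.2% of the domain bases in replicate 1 and 63.4% in replicate 2. The WT NRPE1 peaks covered 25.7% and 21.0% of the same bases. Both *h1* libraries thus lay far above both WT libraries, with means of 66.3% ± 4.09 in *h1* and 23.4% ± 3.32 in WT (SD, n = 2). The difference of 42.9 percentage points was larger than the spread between replicates (5.79 points in *h1*, 4.69 points in WT). An exact two-sided permutation of 2 libraries against 2 cannot give a p below 0.333, which is the value obtained here (p = 0.333), so no difference in these lists was called significant. Peak lists carry no reads, sequencing depth is therefore unknown, and no counting interval was computed.

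Across the genome, both *h1* libraries had more bases under NRPE1 peaks than both WT libraries in 16.1% of 119144 windows of 1 kb and fewer in 4.57%. Of the 10845 windows wholly inside domains, 7881 (72.7%) were higher in *h1* and 62 were lower. Of the 100731 windows under no *h1* H3K9me2 peak, 6.09% were higher and 5.00% were lower. Counted by domain, NRPE1 fill was higher in both *h1* libraries than in both WT libraries in 2868 of the 3750 domains (76.5%) and lower in 41 (1.09%). The 41 domains with less NRPE1 in *h1* were all under 5 kb wide.

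A larger share of the bases under NRPE1 peaks lay inside H3K9me2 domains in *h1* than in WT. In *h1*, 42.1% and 41.4% of all bases under NRPE1 peaks lay inside the domains, against 26.2% and 21.0% in WT. The difference of 18.2 points again exceeded the gaps between replicates of 0.717 and 5.18 points (exact permutation, p = 0.333). The number of NRPE1 peaks was similar in both genotypes (23861 and 24961 in *h1*, 25522 and 24915 in WT). They covered 22.7 and 21.2 Mb in *h1* and 13.6 and 13.8 Mb in WT, so the larger share inside domains came with a larger covered area. Peaks of 5 kb or more numbered 442 and 309 in *h1* and 22 and 10 in WT. Counted by whole peaks, 1030 and 995 *h1* peaks held an entire domain, against 201 and 189 WT peaks. These large peaks had a median fold enrichment of 7.33 and 8.56 in *h1*. The 9065 and 9320 peaks that lay within a domain were weaker, with a median fold enrichment of 2.84 and 3.04, and the 12141 and 12872 peaks outside domains had 4.91 and 5.49.

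The fill fell with the width of the domain. The 1846 domains under 1 kb were filled to 80.2% and 78.4% in *h1*, and the 797 domains of 1 to 2 kb to 82.01% and 79.5%. Fill was 79.7% and 75.6% in the 570 domains of 2 to 5 kb. The 264 domains of 5 to 10 kb had 74.6% and 70.2%. The lowest class was that of 10 kb or more, with 273 domains filled to 62.3% and 54.8%. Replicates overlapped between neighbouring classes up to 5 kb, and the remaining classes of 5 to 10 kb and of 10 kb or more lay, in that order, below all narrower ones. Domains of 5 kb or more were 15.7 and 20.7 points less filled than domains under 1 kb, a mean of −18.2 points that became −10.1 points when H3K9me2 peaks within 500 bp were merged.

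Taken over bases, WT fell from a lower start. WT NRPE1 covered 34.0% and 33.5% of the domains under 1 kb and 22.8% and 17.3% of those of 10 kb or more. The fall from domains under 1 kb to domains of 5 kb or more was 10.2 and 14.99 points in WT, and the *h1* mean was 5.61 points lower (exact permutation, p = 0.333). This difference is close to the gaps between replicates of 5.07 and 4.77 points. Counted by domain, Spearman's rho between width and fill over the 3750 domains was −0.29 in both *h1* lists and 0.03 and −0.005 in the WT lists, so the WT fall was not seen when each domain had equal weight. Domains are not replicates, and rho describes each list. The gain in *h1* over WT was largest in domains of 1 to 2 kb (52.1 points) and 2 to 5 kb (51.8 points), and smallest at 10 kb or more (38.5 points). As a ratio of means, the gain was 2.35 under 1 kb and 2.92 at 10 kb or more.

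**Figure D1:**
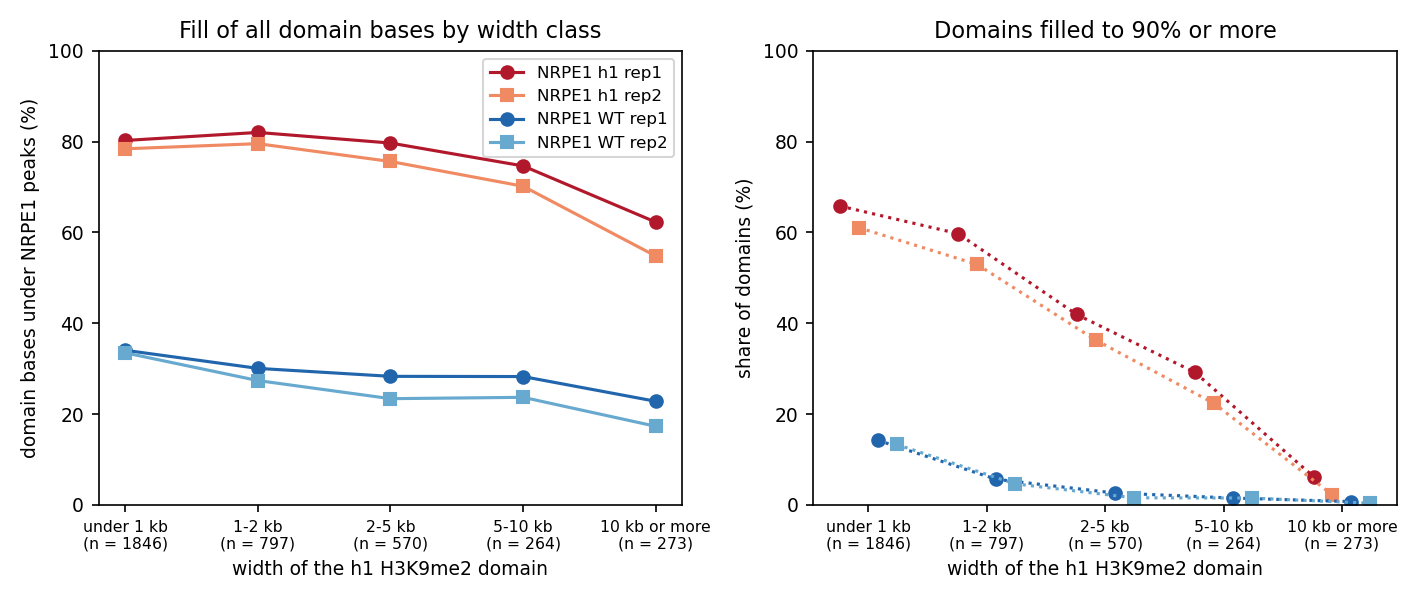
Fill of *h1* H3K9me2 domains by width class, with a line for each NRPE1 library (left, percent of all bases of the class; right, percent of domains filled to 90% or more; points are shifted sideways for clarity). Both *h1* libraries lie above both WT libraries in every class, and the share of nearly full domains falls from 65.8% and 61.1% under 1 kb to 6.23% and 2.20% at 10 kb or more in *h1*.

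Nearly complete filling was common in narrow domains and rare in wide ones, but this measure itself depends on width. The median *h1* NRPE1 peak was 565 and 503 bp wide. Such a peak can fill many domains under 1 kb, while a domain of 10 kb or more needs many peaks. In *h1*, 2024 and 1821 domains (54.0% and 48.6%) were filled to 90% or more, compared with 329 and 297 (8.77% and 7.92%) in WT. The WT share at this level fell with width too, from 14.2% and 13.3% under 1 kb to 0.733% and 0.366% at 10 kb or more. Of the domains under 1 kb, 65.8% and 61.1% reached this level in *h1*. Of those of 10 kb or more, 17 and 6 domains did, and none was covered without a gap. Their median fill was still 68.8% and 61.7%, against 20.5% and 17.0% in WT, and the lower quartile was 57.9% and 51.0%. Empty domains were rare in *h1*, with 267 and 283 of 3750 domains without NRPE1. WT left 1016 and 1023 domains empty. The share of domains in which both *h1* libraries exceeded both WT libraries rose from 65.3% under 1 kb to 91.9% at 10 kb or more, but wide domains average over more bases and have fewer ties at 0. In windows of equal size within domains of 5 kb or more, the share fell from 78.5% at 0.5 to 1 kb inside to 67.5% at 5 kb or deeper. Under 1 kb, 743 and 739 domains were empty in WT, and 211 and 219 were empty in *h1* as well.

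Within wide domains, NRPE1 was densest just inside the edge and thinned out towards the middle. In *h1* domains of 5 kb or more, the outermost 0.25 kb was covered at 74.7% and 72.8% of its bases. The next class, 0.25 to 0.5 kb inside, was the highest at 77.4% and 73.9%. Coverage then fell to 74.5% and 70.3% at 0.5 to 1 kb, 70.1% and 64.8% at 1 to 2 kb, and 67.6% and 61.2% at 2 to 5 kb. At 5 kb or deeper it was 59.9% and 51.7%, and both libraries were at their lowest there. Further in there was little additional fall, with 60.1% and 51.9% at 10 to 20 kb and 59.0% and 50.5% at 20 kb or deeper, where only 51 domains reach.

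In WT the fall began earlier and was complete nearer to the edge. WT NRPE1 covered 39.9% and 42.5% of the outermost 0.25 kb, 29.5% and 27.3% at 0.5 to 1 kb, and 23.6% and 19.8% at 1 to 2 kb. Beyond that it stayed at 22.6% and 16.9% (2 to 5 kb) and 22.4% and 16.0% (5 kb or deeper). The ratio of the *h1* mean to the WT mean therefore rose from 1.79 at the edge to 3.11 at 1 to 2 kb and 3.26 at 2 to 5 kb, and was 2.91 at 5 kb or deeper. In points, the gain was 32.5 in the outermost 0.25 kb, 45.7 at 1 to 2 kb and 36.6 at 5 kb or deeper.

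**Figure D2:**
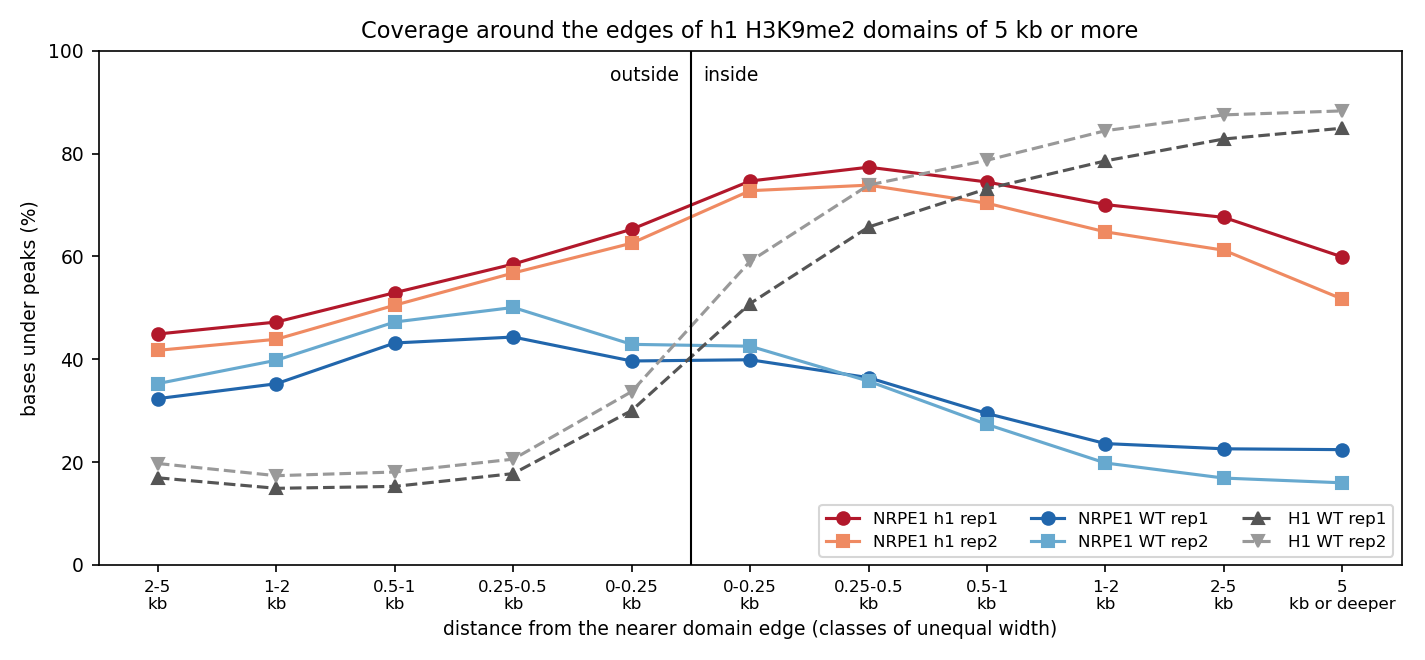
Percent of bases under peaks by distance from the nearer edge of *h1* H3K9me2 domains of 5 kb or more, outside (left of the line) and inside (right), with a line for each library of NRPE1 in *h1*, NRPE1 in WT and H1 in WT. NRPE1 in *h1* is highest at 0.25 to 0.5 kb inside (77.4% and 73.9%), NRPE1 in WT is highest at 0.25 to 0.5 kb outside (44.3% and 50.1%), and H1 in WT rises inwards to 84.9% and 88.3%.

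Compared over fixed zones, bases 2 kb or deeper were covered 13.7 and 18.6 points less than the outer 0.5 kb in *h1*, a mean of −16.2 points ± 3.49 (SD, n = 2). In WT they were covered 15.7 and 22.9 points less, a mean of −19.3 points ± 5.09 (SD, n = 2). The gradients differed by 3.12 points, less than the gaps between replicates of 4.93 and 7.19 points (exact permutation, p = 0.667), and its sign depended on how domains were drawn. The difference was 7.87 points with H3K9me2 peaks merged within 500 bp and 6.55 points with each genotype on its own domains (exact permutation, p = 0.333 for each). It was negative when domains were the intersection of both H3K9me2 lists (−5.61 points, exact permutation, p = 0.333), without *h1* H3K9me2 replicate 1 (−1.68) or 2 (−4.03), and without WT NRPE1 replicate 2 (−0.48). The level was higher in *h1* in every depth class. In domains of 10 kb or more, the only ones that reach 5 kb inside, *h1* coverage was lowest at 5 kb or deeper, while the WT lists were lower at 2 to 5 kb (20.8% and 15.9%) than at 5 kb or deeper (22.4% and 16.0%).

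The gradient was present in domains of both wide classes. In domains of 5 to 10 kb, *h1* NRPE1 covered 78.1% and 76.5% of the outermost 0.25 kb and 72.9% and 67.3% at 2 to 5 kb. In domains of 10 kb or more these values were 71.3% and 69.2%, and 65.1% and 58.3%. Over all bases, the wider domains were thus the less covered ones at the same distance from an edge. On bases with a unique 50-mer the 2 classes stood closer near the edge. Their *h1* means were 81.1% and 77.8% in the outermost 0.25 kb. At 0.25 to 0.5 kb they were 80.8% and 79.9%, with overlapping replicates, and at 2 to 5 kb 71.3% and 65.6%. Edges themselves are set by the H3K9me2 lists, which cover 70.6% and 78.5% of the outermost 0.25 kb and 99.2% and 99.5% of the bases at 5 kb or deeper.

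Most domain edges lay under NRPE1 peaks in *h1*. Of the 7500 edges, 76.9% and 74.9% lay inside a run of NRPE1 peaks that continued on both sides, against 34.3% and 34.0% in WT. From such an edge the run reached a median of 1029 and 857 bp outwards in *h1*, and 286 and 289 bp in WT. Edges with NRPE1 on neither side came to 23.0% and 24.9% in *h1* and 65.6% and 65.9% in WT. A run that ended exactly at an edge was rare in both genotypes. At the edges of domains of 5 kb or more, 69.4% and 66.4% were crossed in *h1* and 39.3% and 40.8% in WT.

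Outside the domains, coverage fell with distance in *h1* and had a different shape in WT. Over all domains, the 0.25 kb just outside was covered at 75.3% and 72.3% in *h1*, and bases 2 to 5 kb away at 34.9% and 32.9%. Bases more than 5 kb away were at 8.91% and 8.35%. In WT the highest class was 0.5 to 1 kb outside, at 43.5% and 46.5%, and bases more than 5 kb away had 7.44% and 8.16%. The difference between the genotypes shrank from 36.7 points next to the domains to 0.833 points beyond 5 kb. All these bases lie under no *h1* H3K9me2 peak. WT H3K9me2 peaks still covered 34.5% and 56.6% of the 0.25 kb just outside, and 0.0973% and 0.253% beyond 5 kb.

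The enrichment of NRPE1 peaks followed depth as well. Among *h1* peaks with a summit in a domain of 5 kb or more, the median fold enrichment was 4.21 and 4.54 for summits in the outermost 0.25 kb, 3.16 and 3.27 at 0.5 to 1 kb, and 2.86 and 3.03 at 5 kb or deeper. The corresponding WT values were 2.84 and 3.07 at the edge and 2.62 and 2.73 at 5 kb or deeper. Summits were about as frequent in the middle as at the edge in *h1*, with 9.05 and 8.99 per 10 kb at 5 kb or deeper and 8.53 and 8.75 per 10 kb in the outermost 0.25 kb. The peaks in the middle were narrower, with a median width of 392 and 349 bp, against 982 and 831 bp at the edge. Fold enrichment is relative to each library's own local background, so only the change with depth within each list is read here, not the level between lists.

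Wide domains were filled in patches. In the 273 domains of 10 kb or more, the covered stretches of *h1* had a median length of 407 and 372 bp, and the uncovered stretches between them 201 and 249 bp. In WT the covered stretches were shorter (232 and 222 bp) and the uncovered ones longer (581 and 741 bp). The longest uncovered stretch of a domain had a median of 1257 and 1735 bp in *h1* and 4099 and 4553 bp in WT. Uncovered stretches of 5 kb or more numbered 24 and 35 in *h1* and 131 and 186 in WT.

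**Figure D3:**
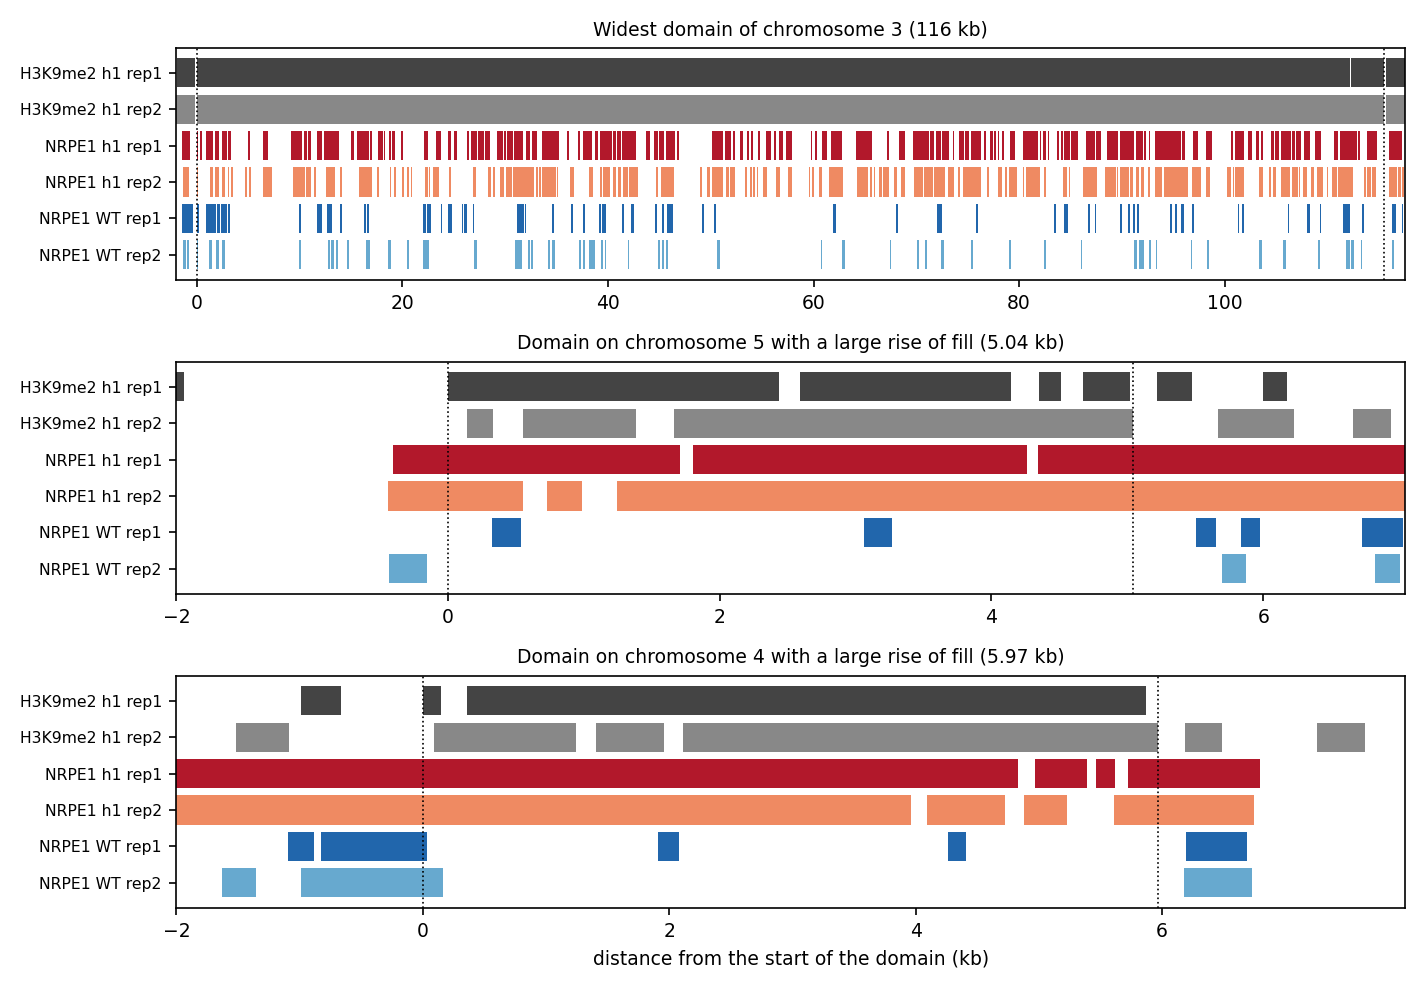
H3K9me2 peaks in *h1* and NRPE1 peaks in *h1* and WT along 3 domains with 2 kb on either side, drawn as bars against the distance from the start of the domain in kb (dotted lines mark its ends). The widest domain of chromosome 3 is covered in patches in *h1* (52.8% and 47.8%) and sparsely in WT (12.9% and 10.9%), whereas the domains of chromosome 5 (96.4% and 91.2%) and chromosome 4 (94.8% and 88.8%) are nearly continuous in *h1*.

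The widest domains of the 5 chromosomes were filled to different extents. On chromosome 3 (chr3:13867162-13982693, 115532 bp) the fill was 52.8% and 47.8% in *h1* and 12.9% and 10.9% in WT, over 23 annotated genes of which 22 are pseudogenes, the class in which RefSeq places transposable element genes. On chromosome 4 (chr4:3133731-3300855) it was 67.8% and 55.9% against 29.1% and 14.1%. On chromosome 5 (chr5:12114480-12259523) it was 62.5% and 54.8% against 23.4% and 18.8%. On chromosome 1 (chr1:15088216-15228828) the *h1* values were 66.6% and 53.4%, and the WT replicates stood far apart at 50.6% and 21.2%, so the difference of 24.1 points is smaller than the gap within WT. Only 31.8% of the 50-mers of that domain are unique in the reference.

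The widest domain of chromosome 2 (chr2:3245555-3379692, 134138 bp) held no NRPE1 peak in either genotype, and no peak of H1 in WT or of SUVH1-3xFLAG in *h1*. H3K9me2 peaks covered 99.7% and 100% of it in *h1*. It is the first of 7 domains of 5 kb or more up to position 3499118 with a fill of 0 in all 4 NRPE1 lists, 0.249 Mb in all. In all, 8 domains of 5 kb or more had a fill of 0 in both *h1* lists, and the next widest after the first are chr2:3442184-3473046 and chr2:3473449-3499118. In these 7 domains 3.99% of 50-mers are unique in the reference with its organelle genomes and 90.3% are unique within the nuclear genome alone. Reads that map to more than 1 place were not kept by the authors, and whether their organelle sequences equal those of TAIR10.1 was not tested. The H3K9me2 lists of *h1* also cover 302 and 306 kb of the mitochondrial genome, where the NRPE1, H1 and SUVH1 lists used here hold no peak. Whether the H3K9me2 peaks of these 7 domains come from nuclear chromatin was not tested.

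Among domains of 5 kb or more, 4 were wholly covered in both *h1* libraries, and the 3 widest of these are named here. The domain over AT3G31980 (chr3:12972164-12978235) had 14.99% and 26.9% in WT. The domain over AT4G05073 (chr4:2596972-2602325) had 41.1% and 28.9% in WT. The domain over AT4G01490 (chr4:631105-636413) had 87.8% and 80.7% in WT and was thus largely covered with H1 present.

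The largest rises among domains of 5 kb or more were in 3 domains of 5 to 6 kb that each span 1 pseudogene. At AT5G28523 (chr5:10497338-10502379) fill was 96.4% and 91.2% in *h1* and 8.35% and 0% in WT. At AT4G08262 (chr4:5204538-5210506) it was 94.8% and 88.8% against 5.998% and 2.78%. At AT4G05133 (chr4:2643053-2648819) it was 96.8% and 96.9% against 13.1% and 11.4%. The groups do not overlap in these domains, which were chosen for their rise, so the values describe them and carry no test. WT H1 peaks covered 83.8% and 98.7% of the AT5G28523 domain and 82.7% and 94.6% of the AT4G08262 domain. They covered 75.8% and 81.0% of the AT4G05133 domain, and 77.5% and 83.6% of the bases of all domains of 5 to 10 kb.

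Of 7 loci known from work on RNA-directed DNA methylation and silencing, FWA, SDC and IBM1 lay outside the domains, and the others had 13.3% to 80.8% of their bases in them. FWA, a homeobox gene silenced by methylation of its promoter repeats, had NRPE1 peaks on 12.4% and 9.87% of its bases in *h1* and on 13.0% in both WT lists. SDC, an F-box gene silenced at tandem repeats, had NRPE1 coverage of 16.9% and 17.5% in *h1* and 17.7% and 16.6% in WT. IBM1, a gene for an H3K9 demethylase, had 10.7% and 9.14% in *h1* and 11.4% and 9.54% in WT. EVD (AT5G17125), annotated as a pseudogene and belonging to an ATCOPIA93 retrotransposon, had 13.3% of its bases in a domain, and NRPE1 covered 100% and 90.3% of it in *h1* against 8.00% and 0% in WT. AtMu1 (AT4G08680), a Mutator-type DNA transposon gene, had 53.2% of its bases in domains, with NRPE1 on 100% and 100% in *h1* and 78.4% and 45.8% in WT. QQS, an orphan gene whose expression varies with the methylation of repeats beside it, had 80.8% of its bases in a domain and went the other way, with 50.8% and 56.8% in *h1* and 73.8% and 100% in WT. RPP7, a disease resistance gene with a retrotransposon in an intron, had 27.7% in domains and 64.3% and 65.0% coverage in *h1* against 57.4% and 63.0%.

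By annotation, pseudogenes, the class that includes transposable element genes, were the most frequent genes of the domains. The 2718 pseudogenes with at least 50% of their bases in domains were covered at 72.8% and 66.3% in *h1* and 22.7% and 17.8% in WT, and both *h1* libraries exceeded both WT libraries in 2319 of them (85.3%), against 79.2% of all 3917 nuclear pseudogenes. The 469 protein-coding genes so placed were covered at 52.9% and 50.6% in *h1* and 18.2% and 17.7% in WT, with 264 higher (56.3%), against 7.69% of all 27444. The 93 lncRNA genes had 61.5% and 61.3% against 26.0% and 29.7%, with 50 higher (53.8%), against 6.58% of all 3480. Over all domains the share was 76.5%, which the pseudogenes exceeded and the other 2 classes did not reach. The protein-coding genes were also shorter, with a median of 1052 bp against 2296 bp for the pseudogenes, and the part of length in these counts was not tested.

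The bases that NRPE1 did not reach differed from those it gained. Taking each base of the domains, 28.8% lay under both *h1* lists and neither WT list, 16.3% under both *h1* lists and 1 WT list, and 10.7% under all 4 lists. A further 20.8% lay under 1 *h1* list only and 23.3% under neither. Bases under both WT lists and neither *h1* list came to 0.213%. The bases under neither *h1* list had 34.5 CG sites per kb, those under 1 list 30.97 and those gained 22.6, while the bases under all 4 lists had 22.5. GC content was 41.9% in the uncovered bases and 39.6% in the gained ones, so the classes stood further apart in CG sites than in base composition.

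Uniqueness of sequence also differed, with unique 50-mers at 62.9% of the uncovered bases and 83.0% of the gained ones. Restricted to bases with a unique 50-mer in domains with at least 10% of such bases, CG density was 36.0 per kb under neither *h1* list and 22.9 in the gained bases. At 2 kb or deeper in domains of 5 kb or more, the same restriction gave 37.5 and 21.7. The difference in CG density was thus as large without the non-unique sequence. In the outer 0.5 kb of these domains, over all bases, it was smaller, with 29.8 and 24.7. CG density regardless of NRPE1 was 23.7 per kb in the outermost 0.25 kb, 27.4 at 0.25 to 0.5 kb and 27.6 at 5 kb or deeper. Bases are not replicates, and these densities are descriptions of the lists. DNA methylation was not analysed here, and the part of GC content in this difference was not tested.

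**Figure D4:**
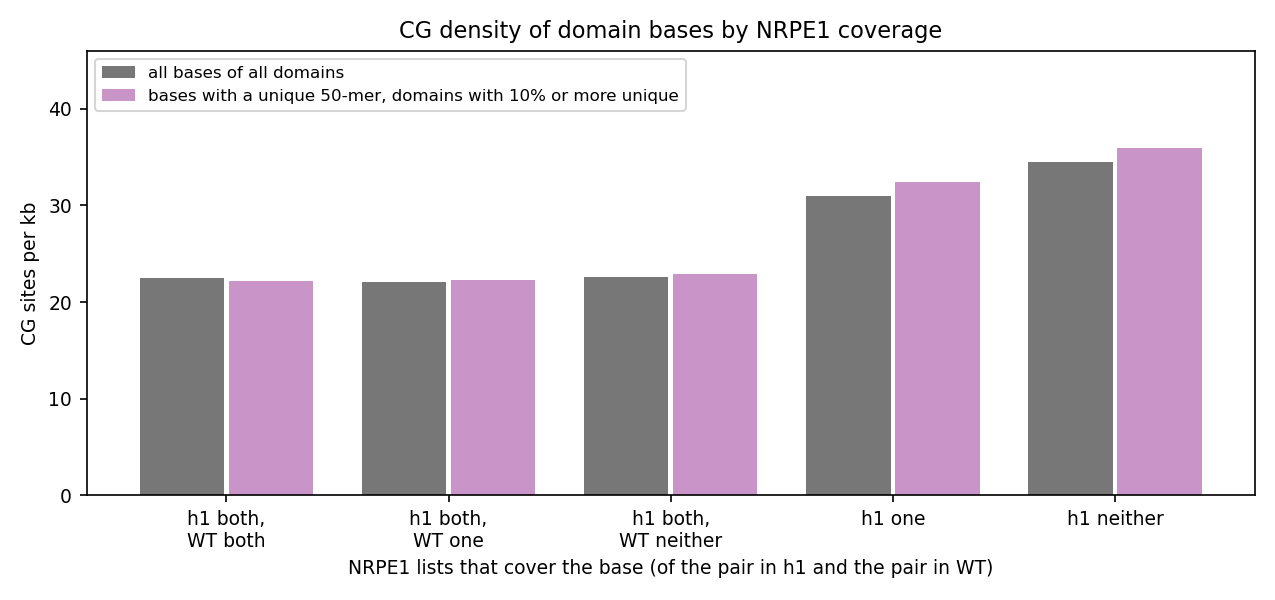
CG sites per kb in domain bases grouped by the NRPE1 lists that cover them, for all bases (grey) and for bases with a unique 50-mer in domains with at least 10% of these (purple), 1 bar per class without error bars since each is a count over the reference. Bases under neither *h1* list have 34.5 and 36.0 CG sites per kb, and bases under both *h1* lists have between 22.1 and 22.9.

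In *h1*, NRPE1 covered more of the domain bases that carry H1 in WT than of those that do not. Of the domain bases, 9.79 Mb lay under H1 peaks of both WT libraries and 1.66 Mb under neither. In *h1*, NRPE1 covered 72.7% and 65.7% of the former and 45.4% and 43.7% of the latter. Part of the bases without H1 peaks lay in sequence of low uniqueness, with unique 50-mers at 58.1% of them against 74.3% of the H1-bound bases. On unique bases alone, *h1* NRPE1 covered 72.7% and 66.9% with H1 peaks and 58.9% and 57.5% without, and the difference of the means narrowed from 24.7 to 11.6 points. WT NRPE1 covered 20.5% and 19.2% of these unique bases where H1 peaks lay and 27.0% and 29.8% where they did not. Over all bases the WT values were 26.7% and 20.8% with H1 peaks and 21.4% and 20.95% without, and these overlap.

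At 2 kb or deeper in domains of 5 kb or more, *h1* NRPE1 covered 67.2% and 58.7% of the bases with H1 in both WT lists and 21.6% and 19.4% of those with H1 in neither. Without the domains of less than 10% unique 50-mers, to which the chromosome 2 domains with no NRPE1 belong, these values were 67.4% and 59.2%, and 37.3% and 35.0%. The difference of the means was 42.5 points over all such domains and 27.1 points without those domains. On unique bases of this deep zone, *h1* NRPE1 covered 66.5% and 59.4% with H1 peaks and 40.8% and 38.6% without, a difference of the means of 23.3 points. WT NRPE1 was at 18.6% and 16.2% of these unique bases with H1 peaks and 13.8% and 14.7% without, the other order than over the unique bases of all domains.

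SUVH1, a reader of DNA methylation, gave a comparison from *h1* plants that also carry a transgene for the tagged protein. Its 2 lists covered 28.2% and 15.6% of the domain bases. In domains of 5 kb or more, coverage was 29.7% and 25.9% in the outermost 0.25 kb and 24.0% and 11.1% at 5 kb or deeper. SUVH1 peaks covered 62.4% and 52.5% of the bases under all 4 NRPE1 lists and 25.4% and 11.2% of the bases that NRPE1 gained.

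Fill also differed with the place of a domain in the genome. Of the domains, 2998 had their centre in a 100-kb window with at least 10% of bases under H3K9me2 peaks in both WT lists, and 752 in other windows. The former were filled to 67.3% and 61.3% and the latter to 92.8% and 90.01% in *h1*, with 24.6% and 20.3%, and 40.4% and 30.3%, in WT. Outside the rich windows, fill was 94.1% and 92.9% in domains under 1 kb and 90.2% and 84.8% in the 24 domains of 5 to 10 kb. Inside them it was 76.0% and 74.0% in domains under 1 kb, and 62.2% and 54.8% in domains of 10 kb or more. Between chromosomes the fill ranged from 60.0% to 72.0%.

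Domains with stronger H3K9me2 were filled less in most width classes. When each class was split into 3 groups of equal size by the H3K9me2 fold enrichment of its domains, the mean *h1* fill in domains of 2 to 5 kb was 83.7% in the weakest group and 72.4% in the strongest. In domains of 5 to 10 kb it was 80.0% and 65.1%. In domains of 10 kb or more it was 64.7%, 55.3% and 58.0% from the weakest to the strongest group. Under 1 kb there was no such order, with 75.2%, 82.2% and 80.2%. Stronger domains were also wider within their class, with medians of 3419.5 bp against 2593 bp at 2 to 5 kb. They were also less unique, with unique 50-mers at 67.8% against 76.1% in that class and 65.0% against 73.1% at 5 to 10 kb. The parts of width, strength and uniqueness were not separated.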

How the data were processed

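NRPE1 and H3K9me2 ChIP-seq peak lists of *h1* and WT were used, with those of H1 in WT and SUVH1-3xFLAG in *h1* for context. Per the methods and processing notes, the authors mapped reads with Bowtie2 (2.1.0) against TAIR10, kept uniquely mapping reads without mismatches and called peaks for each library with MACS2 (2.1.1). The control used for calling is not given in the sources used here. The deposited fold enrichment is a ratio over local background. The deposited −log10 p and −log10 q values are those of the peak caller, with the highest q at 0.0499. The score column deposited by the authors and organelle peaks were not used in the comparisons. The nuclear chromosomes of TAIR10.1, from which genes and sequence were read, include every peak.

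Peaks were merged where they overlapped or touched. Fill was counted in Python (3.11.15) with NumPy (2.4.6) and tested on simulated data. Uniqueness was the share of 50-mers that occur once on both strands of the reference. Differences between genotypes were compared with gaps between replicates and by exact permutation of the libraries. Named were the widest domain of each chromosome, the 3 domains of 5 kb or more with the lowest, the highest and the most increased fill, and 7 loci. Members, classes and loci were chosen with earlier results of these data known. Alternatives were merging within 500 bp, the intersection of both H3K9me2 lists, a −log10 q of at least 3, equal numbers of NRPE1 peaks, unique bases, rich windows, WT domains, pairing by replicate number and leaving out each library. Leaving out domains with less than 10% unique 50-mers was chosen after the data were seen.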

Additional observations from a re-analysis of the deposited data

Results flagged for a closer look

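H3K9me2 peaks on the organelle genomes, which belong to no comparison above, were more numerous in *h1* than in WT. On the chloroplast genome, *h1* had 141 and 115 peaks and WT had 1 and 2. The covered length went the other way, with 91.9 and 103 kb in *h1* and 154 kb in both WT lists, since the WT peaks reached 154 and 146 kb in width. On the mitochondrial genome, *h1* had 146 and 144 peaks over 302 and 306 kb, and WT had 129 and 103 peaks over 321 and 326 kb. No NRPE1, H1 or SUVH1 list used here held an organelle peak. Organelle genomes carry no histones, and the source of these peaks was not tested.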

How the results depend on the processing

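The fill of the domains in *h1* ranged from 62.7% to 69.3% over the alternatives, and the difference from WT from 40.0 to 48.1 points. The difference in depth gradient between *h1* and WT had no stable sign. It was 7.87 points with merging within 500 bp, 6.55 points with each genotype on its own domains, −5.61 points with domains as the intersection of both lists, and between −4.03 and 6.71 points when libraries were left out one at a time, negative without either *h1* H3K9me2 library (−1.68 and −4.03) and without WT NRPE1 replicate 2 (−0.48). The difference in fill between wide and narrow domains was −10.1 points with merging within 500 bp, −22.1 points with the intersection and −14.4 points in rich windows. Domains filled to 90% or more came to 59.1% with the intersection, 45.5% with a −log10 q of at least 3 and 44.7% in rich windows, and to between 48.6% and 57.8% with a library left out. The share of NRPE1 bases inside domains was 46.9% with merging within 500 bp, 34.0% with the intersection, 38.1% with the stricter q, 38.6% on unique bases, 37.6% in rich windows, 40.3% without domains of low uniqueness (chosen after the data were seen), and between 38.8% and 42.1% with a library left out. The cause of these shifts was not tested. WT had 3315 domains of its own over 15.1 Mb, filled by WT NRPE1 to 27.6% and 23.7%.

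With the replicate numbers as a block, the difference in fill was 42.9 points (43.5 and 42.4 within the pairs) and that in gradient 3.12 points (1.99 and 4.25), each with an exact sign-flip p = 0.5, the smallest that 2 pairs allow. The deviations of same-numbered libraries had r = 0.13 over 119144 windows, and nothing in the labels says that the numbers mark a shared batch.

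Since the lists give presence or absence of a peak, NRPE1 below the authors' threshold is not visible, and a more deeply sequenced library can reach the threshold over more bases. Depth could not be compared. With an equal number of peaks per list (23861) the difference in fill was 43.7 points. The lists held 23861 to 25522 peaks before, so this setting removed few peaks and cannot stand in for equal depth.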
